A study of Drosophila melanogaster with 12 samples.

Results

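The leucine-rich repeat G protein-coupled receptors (LGRs) of *Drosophila melanogaster* are the 4 genes *Lgr1*, *rickets* (*rk*), *Lgr3* and *Lgr4*, and their transcripts were followed in photoreceptor nuclei with a disrupted circadian clock. *Lgr1*, *rk* and *Lgr3* were taken as members of the family, whereas *Lgr4* was chosen by its CPM at D10, which were far higher in Rh1>ClkDN than in Rh1>Ctrl nuclei, so its values at that age are a description and carry no test. All 4 were found by their FlyBase identifiers among the 13929 genes counted.

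Nuclear RNA was sequenced from 12 samples, with 3 biological replicates of Rh1>ClkDN and 3 of Rh1>Ctrl at each of 2 ages, D1 and D10. All flies were males in a *w* background that carried rh1-GAL4 on chromosome 3, UAS-GFP-Msp300KASH at attP2 and *ry*506, and were reared at 25°C under a light:dark cycle and frozen at ZT9. Rh1>ClkDN flies also carried UAS-ClkDN, a form of Clock without its basic DNA binding domain, and Rh1>Ctrl flies carried UAS-LacZ instead. Rh1-Gal4 drives expression in outer photoreceptors from late pupal life, so neither the developing eye nor other cells were targeted, and each sample pooled many flies. The younger flies, called D1 here as in the growth protocol, have day 2 in their sample titles.

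The libraries held 3825086 to 5635951 counts in Rh1>ClkDN and 2680229 to 5279375 in Rh1>Ctrl at D1, and 4452076 to 4939198 in Rh1>ClkDN and 1356529 to 4862510 in Rh1>Ctrl at D10. *Clk*, whose count includes the transgene, was at 4868 to 6948 CPM in Rh1>ClkDN and 19.8 to 30.2 CPM in Rh1>Ctrl at D1, and at 8202 to 9623 CPM in Rh1>ClkDN and 31.2 to 75.6 CPM in Rh1>Ctrl at D10. CPM are a gene's counts brought to a common library size with TMM, a normalization that equalizes the bulk of genes between libraries. A summed list of 6 outer photoreceptor markers (*ninaE*, *chp*, *inaD*, *ninaC*, *trp*, *eys*) was detected in all samples, at 13731 to 18194 CPM in Rh1>ClkDN and 31534 to 61744 CPM in Rh1>Ctrl at D1, and at 15091 to 16265 CPM in Rh1>ClkDN and 42018 to 48619 CPM in Rh1>Ctrl at D10. One library stands apart: Rh1>Ctrl replicate 3 at D1 had 832 genes without a count, against 2014 to 4662 in the other libraries. With bulk nuclei, fewer cells of a type and less RNA per cell cannot be told apart. The study reports that retinas of Rh1>ClkDN flies kept in light:dark were degenerating by D10, while photoreceptors were intact at D1. The part of this in the D10 values was not tested.

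LGRs carry a large extracellular domain of leucine-rich repeats on a rhodopsin-like bundle of membrane helices, and bind protein hormones rather than small transmitters. Flies have all of the classical types. Lgr1, of type A, is related to the vertebrate receptors for glycoprotein hormones and is activated by the GPA2/GPB5 dimer. Rk, of type B, is the receptor for bursicon, the hormone that tans the cuticle and expands the wings of newly emerged adults, and it signals through Gs and cyclic AMP (cAMP). Lgr3 and Lgr4 are of type C, related to vertebrate relaxin receptors and bearing an LDL receptor module: Lgr3 receives Ilp8, which couples tissue growth to developmental timing, and Ilp7 has been put forward as the ligand of Lgr4.

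*Lgr4* (FBgn0085440) lies on chromosome X of the dm6 genome (BDGP6), from 13161714 to 13189164 on the minus strand, a locus of 27.5 kb with 2 annotated transcripts and 18 exon blocks. At D1 the 3 Rh1>ClkDN samples were at 187, 249 and 222 CPM (870, 1267 and 1197 counts), against 0.441, 2.47 and 6.92 CPM (2, 11 and 22 counts) in the 3 Rh1>Ctrl samples. The lowest Rh1>ClkDN sample was 27.0 times the highest Rh1>Ctrl sample, which was replicate 3, the library that stands apart. *Lgr4* was chosen on the D10 comparison, with other results of these data known. In the D1 samples its log2 fold change was 6.22, a 74.4-fold difference (standard error, SE, 0.54). The gene passed the filter on low counts only through the Rh1>ClkDN samples. By the quasi-likelihood test of edgeR the p-value adjusted over all genes was 5.937e-05 with that filter and 3.908e-08 without it. Without Rh1>Ctrl replicate 3 the log2 fold change was 7.28, without replicate 1 it was 5.64, and the adjusted p stayed at or under 0.0005967 over all alternatives. Of the 8220 genes tested at D1, 16.1% were called, that is, changed by over 1.5-fold with an adjusted p under 0.05, and 10.2% were called higher in Rh1>ClkDN.

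At D10 *Lgr4* was at 427, 345 and 411 CPM (2174, 1531 and 1893 counts) in Rh1>ClkDN and at 3.27, 2.08 and 2.72 CPM (9, 3 and 13 counts) in Rh1>Ctrl. The lowest sample of Rh1>ClkDN was then 105.6 times the highest of Rh1>Ctrl, and the fitted log2 fold change, given without a test, was 7.11 (SE 0.27). Within Rh1>ClkDN, all D10 samples lay above all D1 samples, as a description of values that include those behind the choice, and 33.8% of all genes had ages that did not overlap there. The mean was 395 ± 43.6 CPM at D10 and 219 ± 31.5 CPM at D1 (SD, n = 3 each), a log2 difference of 0.84 (SE 0.13). Within Rh1>Ctrl the ages overlapped, at 2.69 ± 0.595 CPM at D10 and 3.28 ± 3.31 CPM at D1 (SD, n = 3 each). The genotype effect was larger at D10 than at D1 by 0.98 on the log2 scale (SE 0.69), but that difference rests on the Rh1>Ctrl libraries with few counts: it was -0.06 without Rh1>Ctrl replicate 3 at D1 and 1.52 without replicate 1. No test of it is given, since it uses the D10 samples.

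**Figure D1:**
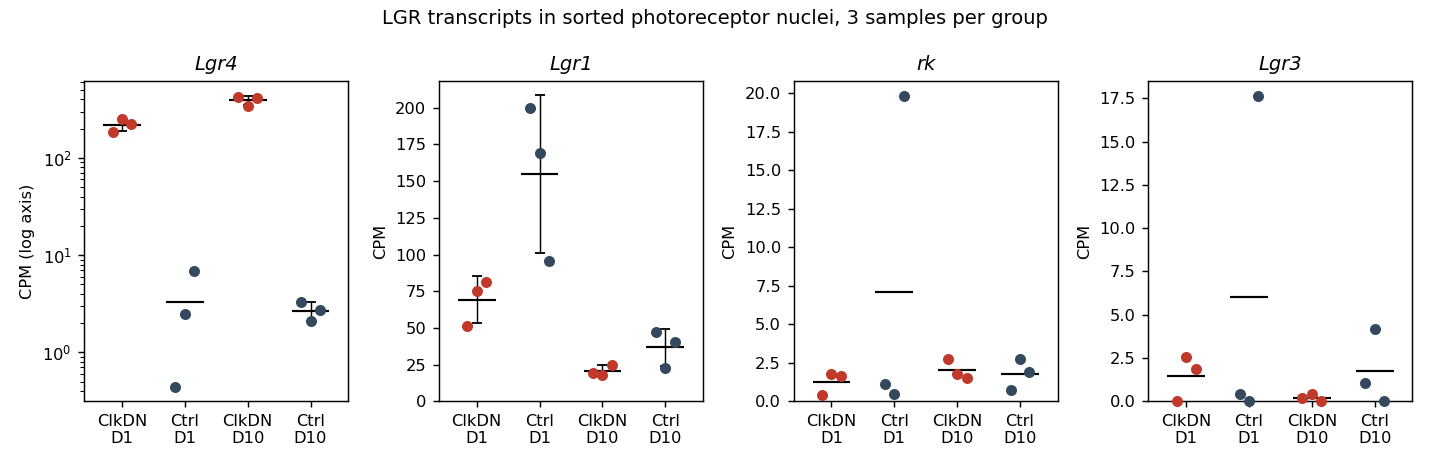
Level of each LGR transcript in CPM (vertical axes, logarithmic for *Lgr4* and linear for the others) in the 3 samples (points) of Rh1>ClkDN and Rh1>Ctrl at D1 and D10, with the group mean as a horizontal line. Whiskers show the SD for *Lgr1* and for the *Lgr4* groups whose SD is below the mean. *Lgr4* sits between 187 and 427 CPM in all Rh1>ClkDN samples and at or under 6.92 CPM in all Rh1>Ctrl samples, while the high points of *rk* and *Lgr3* are a single Rh1>Ctrl library at D1.

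*Lgr1* (FBgn0016650, chromosome 3R from 17725777 to 17733207, plus strand, 7.4 kb) was the LGR with the highest level in control nuclei. At D1 it was at 51.0, 75.4 and 81.0 CPM in Rh1>ClkDN, against 199.8, 169 and 95.6 CPM in Rh1>Ctrl. The groups did not overlap, which was the case for 34.1% of all genes tested at D1. *Lgr1* fell by 1.12 on the log2 scale (SE 0.27, edgeR, adjusted p = 0.01764), where 5.86% of genes were called lower. The call is not firm: in 5 of the 6 fits that left out a replicate the adjusted p was between 0.05011 and 0.07452, and without Rh1>Ctrl replicate 3, the lowest control sample, the log2 fold change was -1.35 and remained called. At D10 *Lgr1* was at 19.5, 18.3 and 25.0 CPM in Rh1>ClkDN and at 47.2, 22.9 and 40.2 CPM in Rh1>Ctrl, where replicate 2, the library with the fewest counts in all, overlapped the Rh1>ClkDN range. Its log2 fold change was -0.87 and missed the threshold (SE 0.31; edgeR, adjusted p = 0.07714), while without that replicate it was -1.03 and was called (edgeR, adjusted p = 0.004407). At D10 23.5% of the 7875 genes tested were called, 14.5% higher and 9.07% lower, and 42.1% had groups that did not overlap.

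*Lgr1* was also lower in older flies. In Rh1>ClkDN it averaged 20.9 ± 3.597 CPM at D10 and 69.1 ± 15.9 CPM at D1 (SD, n = 3 each), a log2 difference of -1.73 (SE 0.21, edgeR, adjusted p = 2.594e-05) that was called under all alternatives, among 14.6% of 8451 genes called for age in this genotype (8.44% higher and 6.18% lower at D10). In Rh1>Ctrl it averaged 36.7 ± 12.5 CPM at D10 and 155 ± 53.6 CPM at D1 (SD, n = 3 each). That log2 difference of -2.03 (SE 0.33) also passed the threshold (edgeR, adjusted p = 0.02868), in a comparison where only 51 of 7239 genes, 0.705%, were called, 0.387% as lower at D10. It lost the call in 4 of the 6 fits without a replicate, with an adjusted p of up to 0.189. In both genotypes every D10 sample lay below every D1 sample. The ages did not overlap, in either direction, for 33.8% of genes in Rh1>ClkDN and 18.1% in Rh1>Ctrl. The difference between the 2 age effects, 0.33 on the log2 scale (SE 0.44), missed the threshold (edgeR interaction, adjusted p = 0.826), a test by which 0.613% of 9135 genes were called.

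*rk* (FBgn0003255, chromosome 2L from 13982743 to 14001248, minus strand) and *Lgr3* (FBgn0039354, chromosome 3R from 25665809 to 25677214, plus strand) were near the limit of detection in almost every library. *rk* had 2, 9 and 9 counts in Rh1>ClkDN and 5, 2 and 63 counts in Rh1>Ctrl at D1, and 14, 8 and 7 counts in Rh1>ClkDN and 2, 4 and 9 counts in Rh1>Ctrl at D10. It passed the filter of 10 counts in 3 samples in no comparison, so it was not tested. The 63 counts, 19.8 CPM, belong to Rh1>Ctrl replicate 3, whereas the other 11 libraries lay between 0.429 and 2.77 CPM. *NimC2*, on the other strand and overlapping *rk*, also peaked in that library, with 26 counts against 0 to 9 elsewhere, and whether strand was used in the counting is not given in the sources used here.

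*Lgr3* had 0, 13 and 10 counts in Rh1>ClkDN and 2, 0 and 56 counts in Rh1>Ctrl at D1, and 1, 2 and 0 counts in Rh1>ClkDN and 3, 6 and 0 counts in Rh1>Ctrl at D10. The 56 counts, 17.6 CPM, again came from Rh1>Ctrl replicate 3. A library without a count allows a level of up to 3 counts, which is 0.628 to 0.673 CPM in the 4 libraries concerned (counting error only). At D1, the only age at which *Lgr3* could be tested, its log2 fold change was -1.98 with an SE of 1.58 (edgeR, adjusted p = 0.4692), so no difference was detectable at this depth. *CG4730*, with 0 to 18 counts, overlaps *Lgr3* on the other strand.

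Since genes differ in length, levels of different receptors were compared per kb of exon, and 35 other peptide receptor genes served as the yardstick. By this measure *Lgr4* was the first of the 39 receptors in Rh1>ClkDN, with a mean level of 73.7 ± 10.6 CPM per kb at D1 and 132.6 ± 14.7 CPM per kb at D10 (SD, n = 3 each). In Rh1>Ctrl it ranked 27 at D1, at 1.10 ± 1.11 CPM per kb, and 16 at D10, at 0.904 ± 0.200 CPM per kb (SD, n = 3 each). The Rh1>Ctrl ranks at D1 lean on replicate 3, which had the highest level of its group for 31 of the 35 other receptors. *Lgr1* held the first rank in Rh1>Ctrl at D1 with 48.1 ± 16.6 CPM per kb (SD, n = 3), and ranks 2, 4 and 2 in Rh1>ClkDN at D1, Rh1>ClkDN at D10 and Rh1>Ctrl at D10, with 21.5, 6.49 and 11.4 CPM per kb. The highest of the other receptors was *Proc-R*, the proctolin receptor, in Rh1>ClkDN at D1, with 10.2 CPM per kb, and *sNPF-R*, the receptor for short neuropeptide F, in the other groups, with 9.15 CPM per kb in Rh1>ClkDN at D10, 20.5 in Rh1>Ctrl at D1 and 21.1 in Rh1>Ctrl at D10. *Lgr4* made up 72.4% to 78.4% of the summed LGR CPM in Rh1>ClkDN and 0.218% to 4.94% in Rh1>Ctrl at D1, and 93.9% to 95.02% in Rh1>ClkDN and 6.07% to 6.52% in Rh1>Ctrl at D10, with *Lgr1* most of the remainder.

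**Figure D2:**
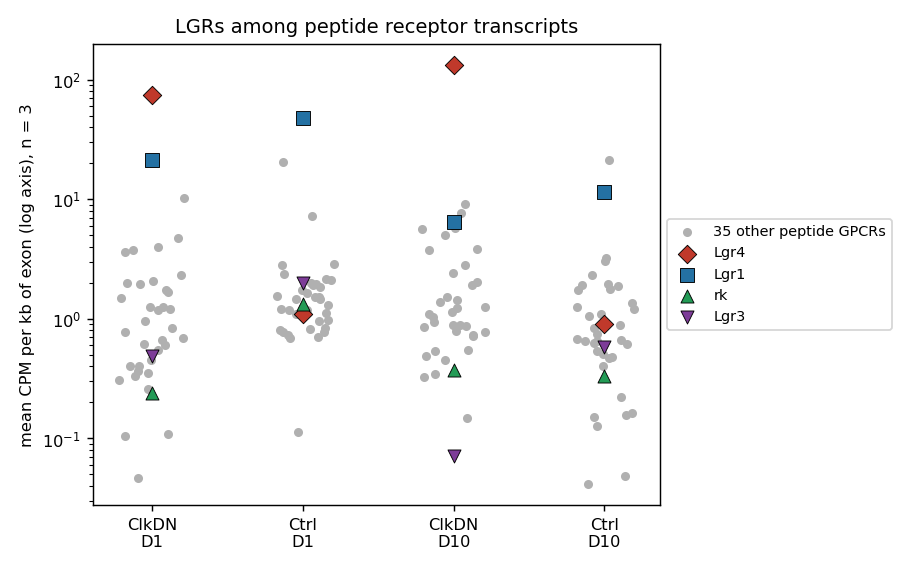
Mean level in CPM per kb of exon (vertical axis, logarithmic; n = 3) of the 4 LGR transcripts (coloured symbols) and 35 other peptide receptor transcripts (grey points) in Rh1>ClkDN and Rh1>Ctrl at D1 and D10. *Lgr4* is the highest symbol in both Rh1>ClkDN groups, at 73.7 and 132.6 CPM per kb, and lies among the grey points in both Rh1>Ctrl groups.

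The ligands of these receptors were almost undetected in the same nuclei. *Gpb5*, a subunit of the Lgr1 ligand, had at most 8 counts in any library, *Ilp7* at most 12 and 45 in all, and *Ilp8* at most 11. *Pburs* reached 6 counts, and *Burs*, the other bursicon subunit, had 4 counts, all in Rh1>Ctrl replicate 3 at D1. None passed the filter in any comparison, and *Gpa2* was not matched in the table. Peptide ligands act between cells, and their levels outside these nuclei were not measured here.

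Genes that carry or end a cAMP signal, the route by which rk acts, formed the next list. Of its 25 genes 24 were tested, and at D1 8 were called higher and 1 lower in Rh1>ClkDN, where 10.2% of all genes were called higher and 5.86% lower. Their median log2 fold change was 0.59, where that of all genes was 0.04. The largest rises were those of *Pde8* and *Pde9*, which encode phosphodiesterases, enzymes that degrade cyclic nucleotides. *Pde8* was at 1238 ± 151 CPM in Rh1>ClkDN, against 164 ± 44.6 CPM in the controls (SD, n = 3 each), a log2 fold change of 2.96 (edgeR, adjusted p = 2.613e-05). *Pde9*, whose mammalian relatives degrade cyclic GMP, was at 242 ± 53.3 CPM in Rh1>ClkDN and 36.8 ± 3.55 CPM in Rh1>Ctrl (SD, n = 3 each), and *dnc*, the cAMP phosphodiesterase known from learning mutants, had a log2 fold change of 1.65. *Epac*, an exchange factor that cAMP switches on directly, rose by 2.37, the protein kinase A family member *Pka-C3* by 1.74 and the kinase anchor *nvy* by 1.504 on the log2 scale. Each of these 6 genes was higher in all 3 Rh1>ClkDN samples than in any Rh1>Ctrl sample, with 34.1% of all genes apart in this way in either direction. The 6 were named for their fold changes in this same comparison, so their separation is no further evidence. *Pde9* and *dnc* lie on the X, where 22.2% of genes were called higher at D1 and 25.4% at D10. *Pde8*, *Epac*, *Pka-C3* and *nvy* lie on autosomes, where the shares were 7.66% and 12.0%.

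At D10 7 of the 24 genes were called higher and 1 lower, where 14.5% and 9.07% of all genes were, and the median was 0.39 where that of all genes was -0.03. The same 6 genes led. *Pde9* was at 1034 ± 42.5 CPM in Rh1>ClkDN and 57.0 ± 7.73 CPM in Rh1>Ctrl at D10 (SD, n = 3 each), a log2 fold change of 4.15 (edgeR, adjusted p = 8.989e-06). *Epac* had 3.74, *Pde8* 3.56, *nvy* 1.94, *dnc* 1.89 and *Pka-C3* 1.76 as log2 fold changes. The gene called lower at both ages was *CrebA*, a transcription factor of the secretory pathway, with log2 fold changes of -1.14 at D1 and -1.63 at D10. *Galphas*, the G protein subunit through which such receptors raise cAMP, missed the threshold, with log2 fold changes of -0.26 (SE 0.17) at D1 and -0.44 (SE 0.21) at D10. *CrebA* and *Galphas* were singled out after their values were seen. Of the 24 genes, 8 were called for age in Rh1>ClkDN, 6 higher and 2 lower at D10, where 14.6% of all genes were called.

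**Figure D3:**
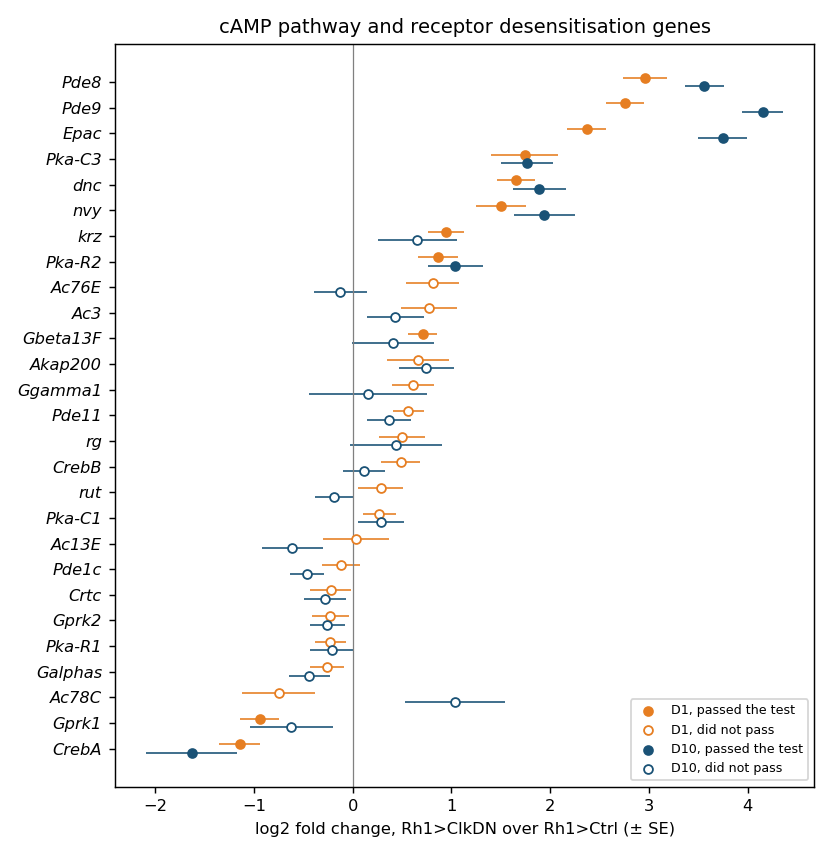
Log2 fold change of Rh1>ClkDN over Rh1>Ctrl (horizontal axis, with its SE) for 24 genes of cAMP signalling and 3 of receptor desensitisation (rows) at D1 (orange) and D10 (blue). Filled symbols passed the test. *Pde8*, *Pde9* and *Epac* are farthest to the right, from 2.37 to 4.15, and *CrebA* is farthest to the left.

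Receptors that are active for long are silenced by kinases and arrestins. Of the 3 such genes tested, *krz*, the non-visual beta-arrestin, was called higher at D1 with 86.9 ± 6.05 CPM in Rh1>ClkDN and 46.6 ± 4.99 CPM in Rh1>Ctrl (SD, n = 3 each; log2 fold change 0.95, edgeR, adjusted p = 0.006503). *Gprk1*, a receptor kinase, was called lower at D1, with 281 ± 19.4 CPM in Rh1>ClkDN and 557 ± 126 CPM in Rh1>Ctrl (SD, n = 3 each; log2 fold change -0.94, edgeR, adjusted p = 0.009534). Neither call was made when all 12 samples were fitted together. At D10 the log2 fold changes of *krz*, 0.66, and *Gprk1*, -0.62, missed the threshold. Over all genes, 10.2% were called higher and 5.86% lower at D1, and 14.5% and 9.07% at D10.

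Of the 35 other peptide receptors 22 were tested at D1, 2 were called higher and 2 lower, where 10.2% and 5.86% of all genes were, and their median log2 fold change was -0.12 where that of all genes was 0.04. *Proc-R* was at 38.6 ± 3.80 CPM in Rh1>ClkDN and 4.45 ± 3.01 CPM in Rh1>Ctrl (SD, n = 3 each; log2 fold change 3.20, edgeR, adjusted p = 0.001094), and *CCKLR-17D3*, a sulfakinin receptor, had 11 to 34 counts in Rh1>ClkDN and 0 to 2 counts in Rh1>Ctrl. *sNPF-R* fell by 2.06 on the log2 scale (edgeR, adjusted p = 0.0002359), and *AstA-R1*, an allatostatin A receptor, by 0.95. At D10 25 were tested, 9 were called higher and 1 lower, where 14.5% and 9.07% of all genes were, and the median was 0.82 where that of all genes was -0.03. Of the 9 genes called higher, 7 passed the filter on low counts only through the Rh1>ClkDN samples, as did both called at D1, so these counts and medians lean on the filter. *Proc-R* had a log2 fold change of 3.12, with 74 to 98 counts in Rh1>ClkDN and 2 to 14 counts in Rh1>Ctrl. *CCKLR-17D3* (2.94), *Lkr* (2.82) and *CCHa2-R* (2.69) came next but had at most 6 counts in any Rh1>Ctrl sample at D10, and *sNPF-R* was again the lower one at -1.25. *Proc-R*, *CCKLR-17D3* and *AstA-R1* lie on the X, and *Lkr*, *CCHa2-R* and *sNPF-R* on autosomes. Of X-linked genes 22.2% were called higher at D1 and 25.4% at D10. Rh1>Ctrl replicate 3 at D1 had the highest level of all 12 libraries for 22 of the 35 receptors. Without it 7 of 21 receptors tested were called higher and 2 lower at D1. Calls over all genes also rose in that fit, to 2206 of 7772 from 1324 of 8220. The count called higher at D10 was lower under other settings. With the replicate block it was 2, with 1096 of 7875 genes called in either direction, against 1852 in the main fit. The fit of all 12 samples gave 4, with 1834 of 9135 genes called. Without Rh1>ClkDN replicate 2 the count was 1, with 552 of 7008 genes called.

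The surroundings of *Lgr4* were examined for overlapping and nearby genes. *CG12096*, overlapping it on the other strand, had 2 to 48 counts. *CG32640* and *CG32641*, which lie within its introns, had 0 and at most 4. *Lgr4* itself had 870 to 2174 counts in Rh1>ClkDN. Whether an overlapping gene lent it reads was not tested, and the strand setting of the counting is not given in the sources used here. The nearest gene on the low side, *Bap60*, a subunit of the Brahma chromatin remodeling complex that lies 2205 bases away on the same strand, was also called higher in Rh1>ClkDN at both ages, with a log2 fold change of 1.79 at D1 (edgeR, adjusted p = 0.03604) and 2.31 at D10 (adjusted p = 0.003915). *CG12723*, 478 bases away on the high side, had 13 to 25 counts in Rh1>ClkDN and 0 to 5 counts in Rh1>Ctrl at D1, and did not pass the threshold (log2 fold change 3.11, edgeR, adjusted p = 0.124).

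Over the 5 nearest genes on each side, a window of 85.4 kb chosen after values were seen, 9 genes were tested at D1 and 3 were called higher, *Bap60*, *Coq5* (2.17) and *REG* (1.93). At D10 8 were tested and 4 were called higher, *CG4318* (4.61), *REG* (2.48), *CG32645* (2.46) and *Bap60*. *CG4318* and *CG32645* share exon sequence, so their counts are uncertain. Over the whole X chromosome 22.2% of 1443 genes were called higher at D1 and 25.4% of 1427 at D10, which is the nearer background for these shares. In the same windows around the autosomal members, the calls were 1 of 6 genes tested, lower, at D10 around *Lgr1*, and 1 of 10 at D1 and 2 of 8 at D10, all lower, around *Lgr3*, where 6.42% of autosomal genes were called lower at D1 and 9.77% at D10. Around *rk* neither of the 2 genes tested was called at either age.

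**Figure D4:**
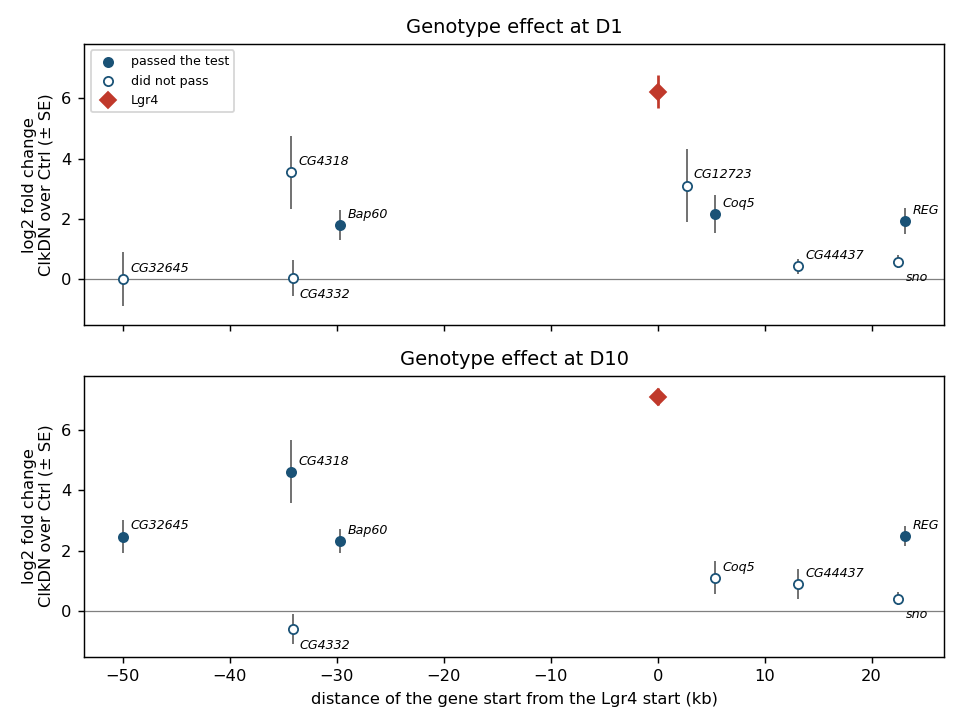
Log2 fold change of Rh1>ClkDN over Rh1>Ctrl (vertical axis, with its SE) at D1 (upper panel) and D10 (lower panel) for *Lgr4* (diamond) and the tested genes among the 5 nearest on each side, by distance of their start from that of *Lgr4* in kb along the chromosome (horizontal axis). Filled circles passed the test, and the *Lgr4* value at D10 is a description. *Lgr4* is the highest point in both panels, at 6.22 and 7.11.

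The genes whose pattern over the 12 samples was most like that of *Lgr4*, by Pearson's r of log2(CPM + 1), were *CG32814* (0.992), *HP1b* (0.991), *CG32706* (0.990), *CG44532* (0.988) and *Elk* (0.987), the first 4 of them on the X as well. The 12 points fall into 2 genotypes, so the gap between them enters every such value, and 118 of 9134 genes had an r above 0.95. *HP1b*, a chromodomain protein of the HP1 family, was at 238.5 ± 38.6 CPM in Rh1>ClkDN and 6.48 ± 3.94 CPM in Rh1>Ctrl at D1, and at 260 ± 17.2 CPM in Rh1>ClkDN and 5.67 ± 1.77 CPM in Rh1>Ctrl at D10 (SD, n = 3 each). *Elk*, a voltage-gated potassium channel, was at 352 ± 41.2 CPM in Rh1>ClkDN and 21.0 ± 8.83 CPM in Rh1>Ctrl at D1, and at 711 ± 26.5 CPM in Rh1>ClkDN and 22.9 ± 8.47 CPM in Rh1>Ctrl at D10 (SD, n = 3 each). Of these 5 genes, *Elk*, *CG44532* and *CG32706* were called higher at D10 than at D1 within Rh1>ClkDN (log2 differences 1.01, 0.95 and 0.65). *CG32814* (0.43) and *HP1b* (0.12) were not, where 8.44% of all genes were called higher. The genes were picked for likeness to *Lgr4*, itself higher at D10 in Rh1>ClkDN. That choice favours such rises, so they are no separate evidence. *CG44532* had 137 to 207 counts in Rh1>ClkDN and 0 to 2 in Rh1>Ctrl at D1, and 269 to 340 counts in Rh1>ClkDN and 0 in all Rh1>Ctrl samples at D10. *CG32814* shares exon sequence with *CG11638*, so its counts are uncertain.

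Some markers of glia were higher in the same samples as *Lgr4*. The summed level of 6 glial markers (*repo*, *moody*, *alrm*, *Eaat1*, *wrapper*, *nrv2*) was 849 to 872 CPM in Rh1>ClkDN and 158 to 199 CPM in Rh1>Ctrl at D1, and 1378 to 1472 CPM in Rh1>ClkDN and 216 to 273 CPM in Rh1>Ctrl at D10. At D1 3 of the 6 were called higher and at D10 2 of 5, where 10.2% and 14.5% of all genes were. Most of the sum in Rh1>ClkDN was *Eaat1*, a glutamate transporter. Without it the sums were 288 to 304 CPM in Rh1>ClkDN and 111 to 127 CPM in Rh1>Ctrl at D1, and 137 to 155 CPM in Rh1>ClkDN and 137 to 196 CPM in Rh1>Ctrl at D10, where the groups overlapped. *repo*, the defining transcription factor of glia, was at 5.51 to 6.11 CPM in Rh1>ClkDN and 3.81 to 9.91 CPM in Rh1>Ctrl at D1, and at 1.74 to 9.24 CPM in Rh1>ClkDN and 7.33 to 28.4 CPM in Rh1>Ctrl at D10. None of the 6 was at 0 in any library. The outer photoreceptor markers moved the other way, with 6 of 6 called lower at D1 and 5 of 6 at D10, where 5.86% and 9.07% of all genes were. The part of these shifts in the *Lgr4* result was not tested.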

How the data were processed

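Per the study's methods, GFP-KASH-tagged nuclei were immuno-enriched from heads of male flies and libraries were made from nuclear RNA with the Ovation SoLo kit. The authors deposited one table of counts per gene, under a name that calls them normalized. All values are whole numbers and sample totals differ, so they were treated as counts without normalization. Submitters' processing notes name Trimmomatic, STAR, SAMtools, DESeq2 and the dm6 and BDGP6 builds; the annotation release and strand setting are not given in the sources used here. Of 13929 genes, 13866 matched a symbol, and loci come from the Ensembl annotation of BDGP6.

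Pairs of groups were fitted with edgeR 4.0.16 (R 4.3.3; limma 3.58.1), with TMM and the quasi-likelihood test, over genes that had 10 or more counts in 3 or more of the samples fitted. Called genes had a Benjamini-Hochberg adjusted p under 0.05 over all genes tested and a fold change over 1.5, or an adjusted p under 0.05 alone for the interaction, fitted over all 12 samples. Standard errors are the absolute log2 fold change over the square root of F. Printed CPM use TMM over all 12 samples. With 3 samples against 3, p-values depend on edgeR's model across genes. The 4 genes, the lists and the windows were chosen with earlier results of these data known. From each list at most 6 called genes per genotype comparison were named, by absolute log2 fold change, with all ligands, overlapping and nearest genes, and the 5 genes most like *Lgr4*.

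Within groups, replicates varied beyond counting noise (chi-square over degrees of freedom 3.12 to 70.1). Alternatives were DESeq2 1.42.0, its size factors in edgeR, library totals only, no filter, a replicate block, all 12 samples in one fit, and leaving out each replicate. Python 3.11.15 with matplotlib 3.10.9 drew the figures. The lists of other neuron, cone and pigment cell, haemocyte, fat body, muscle, inner photoreceptor and testis markers were measured as well.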

Additional observations from a re-analysis of the deposited data

Results flagged for a closer look

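The genotype effect differed between the ages for 2 genes of the cAMP and receptor lists, by the interaction test over all 12 samples, of 24 and 28 genes tested, where 0.613% of all genes were called. *AstA-R1*, an allatostatin A receptor, turned round: it was at 13.3 ± 0.230 CPM in Rh1>ClkDN and 26.6 ± 3.55 CPM in Rh1>Ctrl at D1, and at 28.3 ± 6.95 CPM in Rh1>ClkDN and 11.9 ± 3.38 CPM in Rh1>Ctrl at D10 (SD, n = 3 each). Its log2 fold change was -0.95 at D1 (edgeR, adjusted p = 0.02915) and 1.22 at D10 (edgeR, adjusted p = 0.02918). The difference was 2.248 (SE 0.4256, edgeR interaction, adjusted p = 0.02083). Under some alternatives only 1 peptide receptor was called lower at D1, against 2 in the main fit. Of those 2, *AstA-R1* had the larger adjusted p, so its fall at D1 is not firm. The log2 fold change of *Pde9*, a phosphodiesterase gene, was 2.76 at D1 and 4.15 at D10, a difference of 1.466 (SE 0.3155, edgeR, adjusted p = 0.04014).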

How the results depend on the processing

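*Lgr4* kept its direction and its call at D1 under all alternatives, with a log2 fold change of 5.64 to 7.28 without a replicate and 6.07 to 6.34 under the other settings. These fits reuse the same samples, and in the main fit the gene passed the filter only through the Rh1>ClkDN samples. *Lgr1* had -1.35 to -0.90 at D1, -1.03 to -0.64 at D10 and -2.30 to -1.86 for age in Rh1>Ctrl without a replicate. The *Lgr3* interaction, -0.65 with an edgeR, adjusted p = 0.9456, lay between -1.53 without Rh1>ClkDN replicate 2 at D10 and 0.94 without Rh1>Ctrl replicate 2 at D10, and the cause was not tested. Leaving out a replicate gave 748 to 2206 called genes at D1 (highest without Rh1>Ctrl replicate 3), 552 to 2450 at D10 (lowest without Rh1>ClkDN replicate 2 or 3, highest without Rh1>Ctrl replicate 2), 834 to 1540 for age in Rh1>ClkDN, 1 to 171 for age in Rh1>Ctrl (lowest without Rh1>Ctrl replicate 3 of D1 or of D10) and 12 to 117 for the interaction. The counts of cAMP genes called higher were 6 to 10 at both ages, and of those called lower 0 to 1 at D10. For desensitisation genes, 0 to 1 were called lower at D1 and 0 to 1 in each direction at D10. Of the other peptide receptors, 1 to 7 were called higher and 1 to 2 lower at D1, and 1 to 9 higher and 0 to 1 lower at D10.

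Replicate numbers did not pair the samples, with correlations of -0.108 to 0.0376 between same-numbered deviations. With the replicate block the called genes were 1096 at D10 (1852 without it) and 30 for the interaction (56 without it), 0 cAMP genes were called lower and 2 other peptide receptors higher at D10, and 1 peptide receptor lower at D1. One fit of all 12 samples called 287 genes for age in Rh1>ClkDN and 235 for age in Rh1>Ctrl, 4 peptide receptors higher at D10, and 0 desensitisation genes higher and 0 lower at D1. For age in Rh1>Ctrl DESeq2 called 189 genes and no filter 147, against 51. For the interaction DESeq2 called 269, library totals only 108 and no filter 105. At D1 DESeq2 called 1 peptide receptor higher, and library totals only and no filter 1 lower each. Levels under about 3 counts could not be resolved, a limit that touches *rk* and *Lgr3*. It also touches *Lgr4* in Rh1>Ctrl, which had 2 counts in replicate 1 at D1 and 3 counts in replicate 2 at D10. The size of its fold changes and its ranks in Rh1>Ctrl are therefore uncertain.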

Other observations

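*Lgr4* lies on the X chromosome, and the shares of X-linked and autosomal genes called in Rh1>ClkDN against Rh1>Ctrl were set side by side after the values were known. At D1 22.2% of 1443 X-linked genes were called higher and 2.84% lower, against 7.66% and 6.42% of 6727 autosomal genes, and their median log2 fold changes were 0.46 and -0.03. At D10 25.4% of 1427 X-linked genes were called higher and 5.47% lower, against 12.0% and 9.77% of 6398 autosomal genes, with medians of 0.31 and -0.09. Of the 118 genes with an r above 0.95 to *Lgr4*, 63 (53.4%) were X-linked, against 17.4% of the 9134 genes compared. Such an r favours genes that were higher in Rh1>ClkDN, so this share is not separate from the shares called higher above. No test of any of these shares was run, and all samples came from males.

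Other marker lists were summed in the same way. Levels of 7 markers of other neurons were 336 to 451 CPM in Rh1>ClkDN and 223 to 285 in Rh1>Ctrl at D1, and overlapped at D10. Those of cone and pigment cells overlapped at D1 and were 55.4 to 73.2 in Rh1>ClkDN against 82.3 to 115.6 in Rh1>Ctrl at D10, and those of haemocytes, fat body and inner photoreceptors overlapped at one age or both. Muscle markers were at 150 to 202 CPM in Rh1>ClkDN and 220 to 365 CPM in Rh1>Ctrl at D1, and at 54.6 to 79.0 CPM in Rh1>ClkDN and 93.6 to 320 CPM in Rh1>Ctrl at D10. Testis markers were at 9.22 to 14.96 CPM in Rh1>ClkDN and 3.96 to 35.9 CPM in Rh1>Ctrl at D1, and at 10.0 to 29.3 CPM in Rh1>ClkDN and 0.209 to 8.31 CPM in Rh1>Ctrl at D10. At D10 only 2 of the 6 testis genes passed the filter on low counts, both through the Rh1>ClkDN samples alone.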
